A study of Mus musculus with 23 samples.

Results

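The genes described here are those carried by the mouse mitochondrial genome. They were taken as every gene of the count table whose symbol begins with mt-, after Ensembl identifiers were matched to symbols without their version. The rule found 37 genes of 54347: 13 protein-coding genes, 2 ribosomal RNA genes and 22 transfer RNA genes. RNA was sequenced from cells of the labial cervical loop, an epithelial pocket at the rear end of the lower incisor that feeds the growing tooth, of mice at postnatal day 2 (P2). All groups came from the Sox2-GFP line, whose reporter is driven by the Sox2 gene's own promoter. After enzymatic dissociation, FACS separated reporter-positive (Sox2-positive) cells, labelled as DESC, from reporter-negative (Sox2-negative) cells, which are every other cell of the dissected piece. Batch A held 6 Sox2-negative and 6 Sox2-positive libraries, and batch B held 4 and 7. The batches were run on different days with different mice. The labels give no strain and no treatment, and leave unsaid if libraries within a batch are separate mice or portions of the same cells, so p-values measure the spread between libraries, which may be technical.

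Mitochondrial DNA is transcribed from both strands as long precursors, which are cut at the transfer RNAs that lie between most other genes. The protein-coding genes supply core subunits of complexes I, III and IV of the respiratory chain and of ATP synthase, and the ribosomal RNA genes supply the RNA of the mitochondrial ribosome. Because neighbouring genes share a precursor, unequal mature levels are commonly ascribed to RNA processing and stability. Smart-seq2, the method used, copies RNA from its poly(A) tail. Levels of every gene here, ribosomal and transfer RNA genes and mt-Nd6 included, are those of molecules primed in that way.

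Library totals ranged from 2305778 to 9541443 estimated counts, and 3 counts, taken as the smallest level that can be shown, corresponded to between 0.314 and 1.30 CPM of the library total; the CPM of members below also carry the TMM scaling factor. Such floors cover counting error only. On the library total, without that factor, Sox2 itself ranged from 0 to 1.01 CPM over the Sox2-negative libraries and from 2.69 to 20.2 CPM over the Sox2-positive libraries. The 4 epithelial markers summed to between 0.221% and 0.391% of a Sox2-positive library and to at most 0.0275% of a Sox2-negative library. The 5 mesenchymal markers summed to between 0.879% and 1.27% of a Sox2-negative library and to between 0.0689% and 0.205% of a Sox2-positive library. In batch B, libraries 1 and 2 stood apart from the others in both populations for several genes below, and several results that rest on them are also given without them.

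Many members share sequence with each other or with nuclear copies, and this decides how reads can be assigned. The ends of mt-Atp8 and mt-Atp6 overlap on the genome, as do those of mt-Nd4l and mt-Nd4. No transfer RNA gene lies between the genes of either pair. Whether the genes of a pair were counted from separate RNAs was not tested. The mt-Atp8 gene (chrM:7766-7969, GRCm38, plus strand) and the first 90 bases of mt-Atp6 (chrM:7927-8016, plus strand) are shown because mt-Atp8 had the highest fold change of the 15 ribosomal RNA and protein-coding genes in both batches; capitals mark the 43 bases that they share.
mt-Atp8: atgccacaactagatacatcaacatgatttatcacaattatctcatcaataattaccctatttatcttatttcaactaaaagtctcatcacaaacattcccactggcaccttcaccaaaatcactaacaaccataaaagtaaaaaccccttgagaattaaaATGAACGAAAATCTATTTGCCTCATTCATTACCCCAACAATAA
mt-Atp6: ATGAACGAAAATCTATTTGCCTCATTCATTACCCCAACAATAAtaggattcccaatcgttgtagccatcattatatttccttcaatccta
The nuclear gene Gm29216 (chr1:24615706-24616197, minus strand) is a copy of the last 492 bases of mt-Co1, bases 1054 to 1545 of that gene, and differs from it at 6 positions. Counted from the first base of mt-Co1, with the mt-Co1 base first, these are T1056A, C1057T, A1059G, A1060G, C1062A and A1066T. The stretch that holds all 6 is shown for mt-Co1 (chrM:6381-6440, plus strand) and for the copy (chr1:24616138-24616197, minus strand), with the differing bases in capitals.
mt-Co1: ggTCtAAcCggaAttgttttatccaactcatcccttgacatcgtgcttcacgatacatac
Gm29216: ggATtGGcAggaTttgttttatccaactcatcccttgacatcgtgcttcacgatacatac
A read from the shared part that does not cover these positions fits both genes. The transfer RNA gene mt-Ts1 (chrM:6870-6938, minus strand), the most abundant transfer RNA member, lies against the end of mt-Co1 on the other strand. It is shown because no source used here states that counting used strand; its 3 capitals are complementary to the end of mt-Co1.
mt-Ts1: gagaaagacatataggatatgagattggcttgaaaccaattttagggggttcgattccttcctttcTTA

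Of all 31-base words in each gene, 63.9% of those in mt-Co1, 100% in mt-Co2, 99.5% in mt-Atp6, 99.9% in mt-Co3, 98.1% in mt-Nd3, 98.9% in mt-Nd4l and 62.8% in mt-Nd4 also occurred in another gene. The share was 7.47% in mt-Atp8, 2.71% in mt-Rnr2 and 0% in mt-Rnr1 and mt-Nd1. The other genes lay between these, at 6.55% in mt-Cytb, 7.36% in mt-Nd6, 13.5% in mt-Nd2 and 16.8% in mt-Nd5. Levels of the first group are uncertain to the extent that counting split reads with copies, and the value with the near-whole copies added to their gene is given where that changed a call, turned a direction or moved a fold by over 1.5 times. A near-whole copy was a nuclear gene with at least 90% of its words in a member. There were 7, all on chromosome 1: Gm29216 of mt-Co1, Gm28437 of mt-Co3, Gm28661 of mt-Co2, Gm10925 of mt-Atp6, Gm28438 of mt-Nd3, Gm10222 of mt-Nd4l and Gm28439 of mt-Nd4.

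The 37 genes together took a similar share of the library in both populations of batch A and a lower share in the Sox2-negative cells of batch B. In batch A the share was 3.68% ± 0.265 (SD, n = 6) in Sox2-negative libraries, with a lowest value of 3.20%, a median of 3.72% and a highest of 4.01%. In the Sox2-positive libraries of batch A it was 3.56% ± 0.405 (n = 6), from 3.14% through a median of 3.51% to 4.30%. These ranges overlapped. In batch B the Sox2-negative libraries 1 to 4 gave 1.71%, 1.77%, 2.47% and 2.33%, a mean of 2.07% ± 0.384, and the Sox2-positive libraries 3.88% ± 0.278 (n = 7), from 3.53% through 3.84% to 4.31%. These did not overlap, and libraries 1 and 2 held the lowest Sox2-negative values; without them the batch B means were 2.40% and 3.74%. A share can fall with fewer cells of a type or with less RNA per cell, which cannot be told apart in bulk samples.

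Other RNA moved with that group. The 6 erythroid markers, mainly globin genes, summed to 5.08% of a batch B Sox2-negative library (range 4.93% to 5.37%), to 0.109% in batch A Sox2-negative cells (0.0968% to 0.117%) and to at most 0.00117% in any Sox2-positive library. With these 6 genes left out of the total, the batch B Sox2-negative share was 2.18% ± 0.402, still below every Sox2-positive library of that batch. Whether other RNA of those cells sets the remaining difference was not tested.

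**Figure D1:**
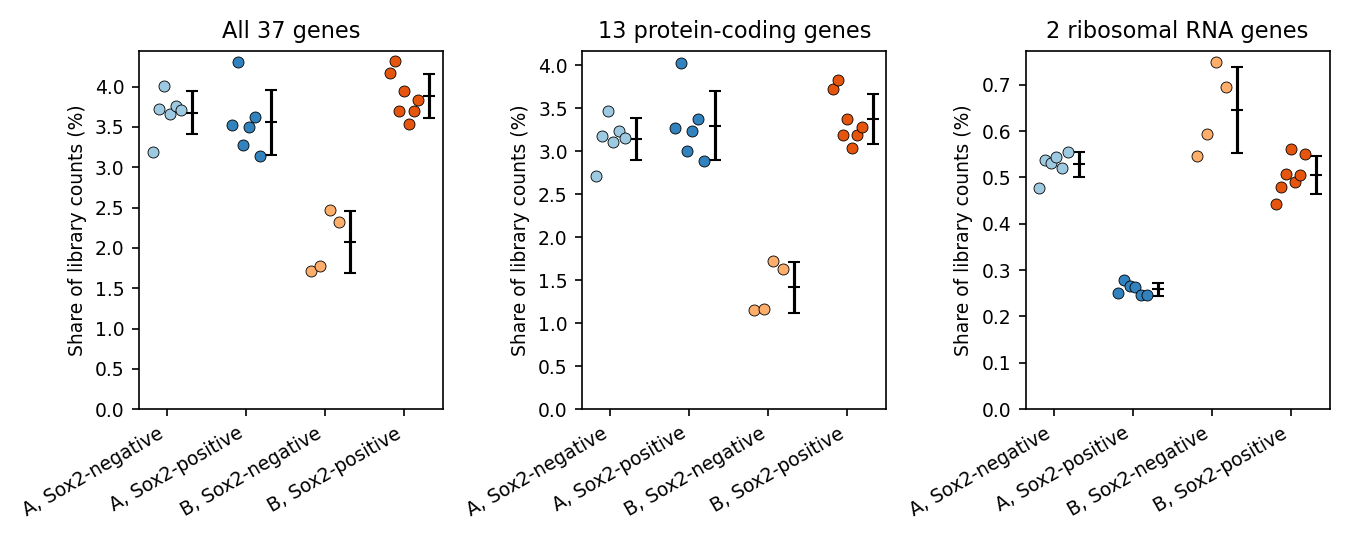
Share of library counts (%, y axis from 0) taken by all 37 genes, the 13 protein-coding genes and the 2 ribosomal RNA genes, with 1 point per library in the 4 batch-by-population groups and a bar of mean ± SD beside each. The batch B Sox2-negative libraries sit lowest for protein-coding genes, between 1.16% and 1.72%; for ribosomal RNA genes they have the highest mean, 0.646%, with a range from 0.545% to 0.748% that meets those of other groups.

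The lower share in batch B Sox2-negative cells lay in the protein-coding genes. These took 3.14% ± 0.246 and 3.30% ± 0.398 of the Sox2-negative and Sox2-positive libraries of batch A, and 1.42% ± 0.297 and 3.38% ± 0.293 of those of batch B. The ribosomal RNA genes behaved differently. They took 0.528% ± 0.0275 of Sox2-negative and 0.258% ± 0.0130 of Sox2-positive libraries in batch A, against 0.646% ± 0.0925 and 0.505% ± 0.0412 in batch B. In batch A the 2 populations did not overlap in the ribosomal RNA share, whereas in batch B the ranges met, at 0.545% for the lowest Sox2-negative and 0.562% for the highest Sox2-positive library.

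Next, single genes were compared between populations with edgeR's quasi-likelihood test with Benjamini-Hochberg adjustment over 17190 genes. The 13 protein-coding and 2 ribosomal RNA genes and 4 transfer RNA genes passed the filter on low counts. In batch A, 4 of these 19 genes were called higher in Sox2-positive cells, against 21.8% of all genes tested, and 10 were called lower, against 27.6%. In batch B, 7 were called higher, against 17.5%, and 6 lower, against 25.0%. The median log2 fold change of the 15 ribosomal RNA and protein-coding genes was -0.66 in batch A and 0.33 in batch B, beside -0.13 and -0.11 over all genes. With counts scaled to library totals alone, the median over all genes in batch B moved from -0.11 to 0.05.

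As deposited, 4 protein-coding genes were called higher in Sox2-positive cells of both batches: mt-Atp8 and mt-Atp6 of ATP synthase, mt-Co1 of complex IV and mt-Cytb, the mitochondrial subunit of complex III. The genes called lower in both were both ribosomal RNA genes, the complex I genes mt-Nd2, mt-Nd3 and mt-Nd6, and the transfer RNA gene mt-Tq, 6 in all. The share of all genes called in the same direction in both batches was not counted, so these counts cannot be set against it. In batch B mt-Co3 was called higher and mt-Nd3 lower; they lie on the same strand with only a transfer RNA gene between them.

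**Figure D2:**
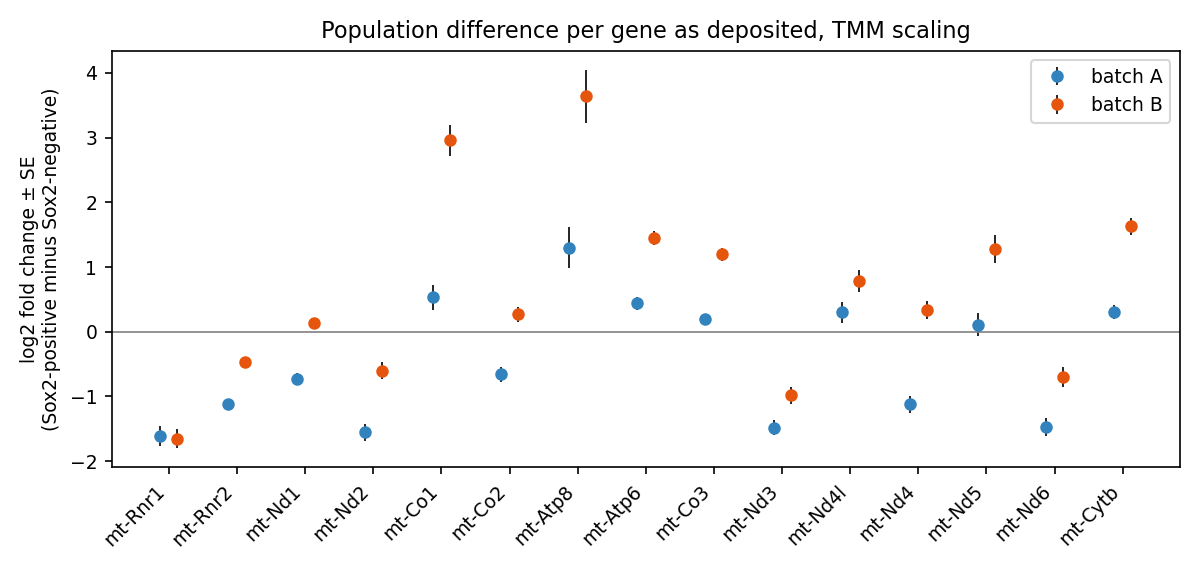
Log2 fold change (Sox2-positive minus Sox2-negative, y axis) ± SE of each of the 15 genes, in genome order on the x axis, for batch A and batch B as deposited. The largest values in both batches are those of mt-Atp8, 1.30 and 3.64, and the lowest those of mt-Rnr1, -1.61 and -1.65.

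Counts of the ATP synthase gene mt-Atp8, which codes for a small membrane subunit, rose most. In batch A its level ran from 210 through a median of 294 to 419 CPM in Sox2-negative libraries and from 630 through 704 to 1011 CPM in Sox2-positive libraries. In batch B the Sox2-negative libraries 1 to 4 gave 14.9, 13.02, 109 and 78.7 CPM, and the Sox2-positive libraries ran from 597 through 685 to 776 CPM. The populations did not overlap in either batch, and libraries 1 and 2 were far below libraries 3 and 4. The difference was a log2 fold change of 1.30 (SE 0.32, edgeR adjusted p = 0.00131) in batch A and 3.64 (SE 0.41, edgeR adjusted p = 5.27e-08) in batch B. In batch B it was 2.82 (SE 0.25, edgeR adjusted p = 1.63e-08) without libraries 1 and 2 of both populations, and 4.30 without Sox2-negative library 3.

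Counts of its neighbour mt-Atp6, the proton-channel subunit of ATP synthase, rose less. Mean levels were 4358 and 5907 CPM in the Sox2-negative and Sox2-positive cells of batch A, and 1974 and 5391 CPM in those of batch B. The difference was a log2 fold change of 0.44 (SE 0.10) in batch A and 1.45 (SE 0.11) in batch B, with edgeR adjusted p-values of 6.56e-04 and 7.93e-11. The ratio of mt-Atp6 to mt-Atp8 counts was 14.8 ± 2.32 in Sox2-negative and 7.96 ± 0.409 in Sox2-positive cells of batch A. In batch B it was 111.5, 125.8, 21.6 and 28.4 in Sox2-negative libraries 1 to 4, and 8.06 ± 0.427 in Sox2-positive cells. The Sox2-positive libraries of both batches all lay between 7.34 and 8.63, and every Sox2-negative library lay above them, at 11.2 or more. Reads from the 43 bases that both genes hold can be assigned to either. The ratio compares counts along overlapping genes, and whether these stand for separate RNAs was not tested.

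**Figure D3:**
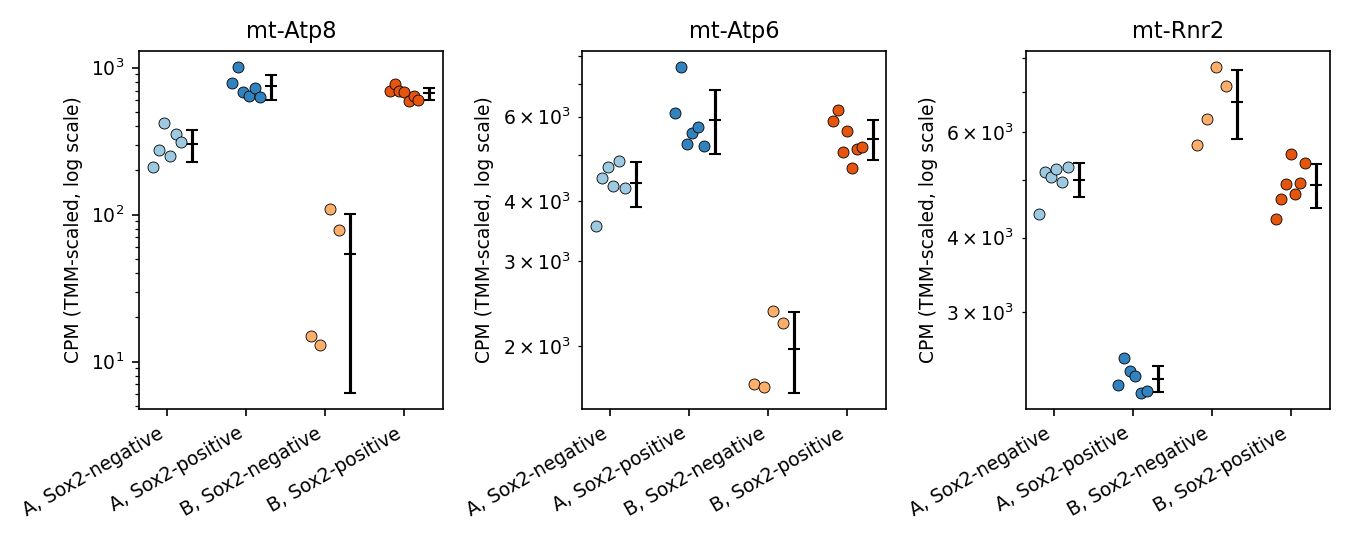
CPM on a log scale (y axis) of mt-Atp8, mt-Atp6 and mt-Rnr2, with 1 point per library in the 4 groups and a bar of mean ± SD. For mt-Atp8 the batch B Sox2-negative libraries spread from 13.02 to 109 CPM, and every Sox2-positive library lies at 597 CPM or above.

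The complex III gene mt-Cytb rose in both batches. Its mean level was 3751 CPM in Sox2-negative and 4654 CPM in Sox2-positive cells of batch A, and 1501 and 4657 CPM in batch B. The difference was a log2 fold change of 0.31 (SE 0.11, edgeR adjusted p = 0.0207) in batch A, where the ranges overlapped, and 1.63 (SE 0.13, edgeR adjusted p = 7.16e-11) in batch B, where they did not. Without libraries 1 and 2 the batch B value was 1.28.

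For mt-Co1, the catalytic subunit of complex IV, counts of the nuclear copy mattered. The call in batch A and the size of the difference in batch B depended on whether they were added. As deposited, its level ran from 2943 through 3735 to 4321 CPM in Sox2-negative and from 4602 through 5432 to 6567 CPM in Sox2-positive cells of batch A. In batch B it was 443, 416, 1432 and 1172 CPM in Sox2-negative libraries 1 to 4 and ran from 6429 through 6698 to 6984 CPM in Sox2-positive cells. The difference was a log2 fold change of 0.53 (SE 0.19, edgeR adjusted p = 0.0256) in batch A and 2.96 (SE 0.24, edgeR adjusted p = 1.65e-10) in batch B, or 2.39 in batch B without libraries 1 and 2.

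The copy Gm29216 moved the other way in batch A, while in batch B its means lay close together. Its mean level was 3573 CPM in Sox2-negative and 1174 CPM in Sox2-positive cells of batch A, and 2254 and 2093 CPM in those of batch B. Of the counts of both genes together, the copy took 48.7% ± 1.98 and 17.9% ± 2.88 in batch A, against 73.8% ± 11.7 and 23.5% ± 4.13 in batch B, in Sox2-negative and Sox2-positive cells. When each near-whole copy was added to its gene, an alternative chosen after seeing the data, the batch A log2 fold change of mt-Co1 became -0.10 (SE 0.08, edgeR adjusted p = 0.339). In batch B it became 1.54 (SE 0.10, edgeR adjusted p = 1.09e-12), a smaller increase than as deposited. Together the pair then made up 18.1% ± 0.658 and 18.7% ± 0.462 of the 15 genes in batch A, which overlapped, and 12.4% ± 0.454 and 21.4% ± 0.461 in batch B, which did not.

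**Figure D4:**
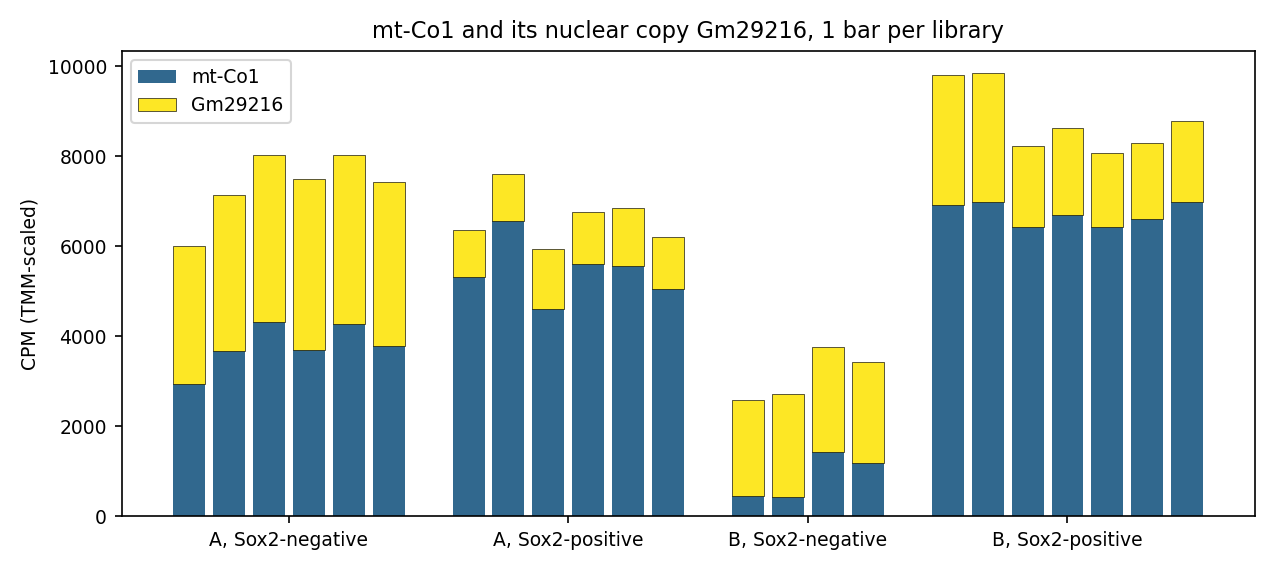
Stacked CPM (y axis from 0) of mt-Co1 and of its nuclear copy Gm29216, with 1 bar per library in the 4 groups. The copy takes a mean of 48.7% of the pair in batch A Sox2-negative libraries and 17.9% in batch A Sox2-positive libraries.

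The other subunits of complex IV differed between batches. For mt-Co3 the difference was a log2 fold change of 0.19 (SE 0.09, edgeR adjusted p = 0.0684) in batch A and 1.20 (SE 0.10, edgeR adjusted p = 1.46e-10) in batch B, with mean levels of 5598 and 6380 CPM, and 3163 and 7256 CPM. With copies added the batch A value was 0.34 (edgeR adjusted p = 3.98e-04), and it passed the threshold in 15 of the 23 fits that left out 1 library. For mt-Co2 it was -0.66 (SE 0.11, edgeR adjusted p = 1.72e-05) in batch A, from 4094 to 2589 CPM, and 0.27 (SE 0.12, edgeR adjusted p = 0.0688) in batch B, from 2698 to 3253 CPM. With copies added, the batch A value was -0.41 (edgeR adjusted p = 5.19e-05) and the batch B value 0.35 (edgeR adjusted p = 8.67e-04). With TMM scaling and no copies added, the batch B increase passed in 14 of the 23 fits without 1 library. Scaled to the 15 genes the batch B value was -0.51.

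The copies of mt-Co3, mt-Co2 and mt-Atp6 were listed at 0 in all 10 Sox2-negative libraries. In Sox2-positive libraries Gm28437 reached 954 CPM, Gm28661 reached 958 CPM and Gm10925 reached 91.8 CPM, and each was also at 0 in at least 1 of them. The copy took up to 15.4% of the counts of the mt-Co3 pair and up to 34.4% of those of the mt-Co2 pair in a library.

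Among the 7 complex I genes, which code for membrane subunits of NADH dehydrogenase, mt-Nd2, mt-Nd3 and mt-Nd6 fell in Sox2-positive cells of both batches. The log2 fold changes were -1.55 and -0.60 for mt-Nd2, -1.48 and -0.98 for mt-Nd3, and -1.47 and -0.70 for mt-Nd6, in batches A and B, with SEs from 0.12 to 0.15 and edgeR adjusted p-values of 7.24e-04 or less. In batch A, mt-Nd2 averaged 1594 and 544 CPM, mt-Nd3 386 and 138 CPM, and mt-Nd6 695 and 250.0 CPM in Sox2-negative and Sox2-positive cells. In batch B the means were 917 and 604 CPM, 400.0 and 202 CPM, and 415 and 255 CPM. The mt-Nd6 gene lies on the opposite strand to the other protein-coding genes, and without a stated strand setting its reads cannot be told from antisense reads of the long precursor.

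The remaining complex I genes followed other patterns. In batch A mt-Nd1 and mt-Nd4 fell, by 0.73 (SE 0.09) and 1.12 (SE 0.13) on the log2 scale, from 3774 to 2270 CPM and from 2447 to 1123 CPM. In batch B their values were 0.13 (SE 0.09, edgeR adjusted p = 0.262) and 0.33 (SE 0.14, edgeR adjusted p = 0.0575), with means of 2009 and 2206 CPM, and 1335 and 1683 CPM. With copies added the batch B value of mt-Nd4 was 0.38 (SE 0.14, edgeR adjusted p = 0.0325). Without libraries 1 and 2 of batch B these were -0.05 and -0.09, and scaled to the 15 genes -0.64 and -0.43. With TMM scaling, the batch B increase of mt-Nd4 passed in 14 of the 23 fits without 1 library. That of mt-Nd1 did so without Sox2-negative library 3 (0.25, edgeR adjusted p = 0.0478). For mt-Nd5 and mt-Nd4l batch B gave increases of 1.28 (SE 0.21, edgeR adjusted p = 1.57e-05) and 0.78 (SE 0.17, edgeR adjusted p = 7.54e-04). Without libraries 1 and 2, mt-Nd5 was at 0.69 (edgeR adjusted p = 5.72e-04) and mt-Nd4l at 0.62 with an edgeR adjusted p of 0.0522. Batch A gave 0.11 (SE 0.18) for mt-Nd5 and 0.30 (SE 0.16) for mt-Nd4l, neither past the threshold; without Sox2-negative library 3 of batch A mt-Nd4l was at 0.41 (edgeR adjusted p = 0.0263), and without Sox2-negative library 3 of batch B at 0.36 (edgeR adjusted p = 0.0440). Mean levels of mt-Nd5 were 774 and 837 CPM in batch A and 315 and 763 CPM in batch B, and those of mt-Nd4l 69.2 and 84.9 CPM, and 53.4 and 91.5 CPM.

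Both ribosomal RNA genes fell in Sox2-positive cells. The small-subunit gene mt-Rnr1 ran from 238 through 319 to 348 CPM in Sox2-negative and from 66.8 through 106 to 111 CPM in Sox2-positive cells of batch A. In batch B it was 467, 537, 346 and 382 CPM in Sox2-negative libraries 1 to 4 and ran from 109 through 142 to 176 CPM in Sox2-positive cells. The populations did not overlap in either batch, and the log2 fold changes were -1.61 (SE 0.15, edgeR adjusted p = 1.04e-09) and -1.65 (SE 0.15, edgeR adjusted p = 1.39e-09).

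The large-subunit gene mt-Rnr2 ran from 4372 through 5105 to 5259 CPM and from 2199 through 2310 to 2513 CPM in the Sox2-negative and Sox2-positive cells of batch A, with no overlap. In batch B it was 5717, 6328, 7716 and 7176 CPM in Sox2-negative libraries 1 to 4 and ran from 4291 through 4911 to 5510 CPM in Sox2-positive cells, again with no overlap. The log2 fold changes were -1.11 (SE 0.07, edgeR adjusted p = 7.03e-13) and -0.46 (SE 0.07, edgeR adjusted p = 1.31e-05). The ratio of mt-Rnr2 to mt-Rnr1 counts was 16.5 ± 1.68 and 23.9 ± 5.02 in batch A, against 16.3 ± 5.14 and 36.5 ± 7.07 in batch B.

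The 22 transfer RNA genes held few counts, with a summed count per library from 69.95 to 937. In each group between 2 and 5 of them were at 0 in every library. A group mean of 10 CPM was reached by mt-Ts1 and mt-Tq, and the other 20 stayed at 3.77 CPM or less. The serine transfer RNA gene mt-Ts1 made up from 17.5% to 83.3% of the transfer RNA counts of a library. Its means were 28.2 ± 12.7 and 17.1 ± 6.99 CPM in batch A and 59.8 ± 35.4 and 30.7 ± 13.8 CPM in batch B, and neither population difference passed the threshold (edgeR adjusted p = 0.126 and 0.0563). The glutamine transfer RNA gene mt-Tq fell by 2.03 (SE 0.56, edgeR adjusted p = 0.00411) and 1.80 (SE 0.57, edgeR adjusted p = 0.0120) on the log2 scale, from 8.48 to 2.06 CPM and from 12.7 to 3.59 CPM. In batch B its Sox2-negative libraries 1 to 4 gave 16.9, 24.3, 2.14 and 7.33 CPM, and the ranges overlapped. Without libraries 1 and 2 the batch B value was -0.57 (SE 0.78, edgeR adjusted p = 0.629). The lowest batch A Sox2-positive value of mt-Tq, 0.801 CPM in library 1, lay close to the floor of that library, 0.71 CPM. Also tested were mt-Te, which fell in batch A by 1.80 (SE 0.67, edgeR adjusted p = 0.0271), and mt-Tl1, which was called in neither batch. Both mt-Tq and mt-Te lie on the minus strand. Without a stated strand setting their reads cannot be told from those of the plus-strand precursor.

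To see the make-up of the mitochondrial RNA apart from its total, each of the 15 ribosomal RNA and protein-coding genes was expressed as a percent of their summed count. Summed over each class, complex IV and ATP synthase genes took a larger percent in Sox2-positive cells of both batches, and complex I and ribosomal RNA genes a smaller one. Single genes departed from their class: mt-Co2 of complex IV took a smaller mean percent, 11.08% and 7.71% in batch A with 11.92% and 8.38% for batch B. In complex I, mt-Nd5 took a larger one, 2.09% and 2.52% in batch A with 1.32% and 1.96% for batch B, as did mt-Nd4l, at 0.188% and 0.256%, and 0.231% and 0.237%. The populations overlapped in both batches for these 2 genes and in neither for mt-Co2. The 7 complex I genes took 26.4% ± 0.520 and 15.8% ± 0.884 in batch A, against 23.8% ± 0.656 and 14.9% ± 1.23 in batch B, in Sox2-negative and Sox2-positive cells. The 3 complex IV genes took 36.5% ± 0.506 and 43.1% ± 1.05, and 29.4% ± 0.157 and 44.4% ± 0.485. With copies added these were 42.1% and 46.4%, and 35.8% and 47.7%, and the populations still did not overlap.

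The 2 ATP synthase genes took 12.6% ± 0.551 and 19.9% ± 0.948 in batch A, against 8.82% ± 0.533 and 15.6% ± 0.327 in batch B. The complex III gene mt-Cytb took 10.2% ± 0.425 and 13.9% ± 0.645, and 6.47% ± 0.861 and 11.99% ± 0.474. The 2 ribosomal RNA genes took 14.4% ± 0.693 and 7.31% ± 0.638, and 31.5% ± 1.74 and 13.1% ± 1.54. None of these 5 classes overlapped between populations within a batch. Per base of gene length, mt-Rnr2 ranked first of the 15 in batch B Sox2-negative cells and 6, 8 and 7 in batch A Sox2-negative, batch A Sox2-positive and batch B Sox2-positive cells.

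**Figure D5:**
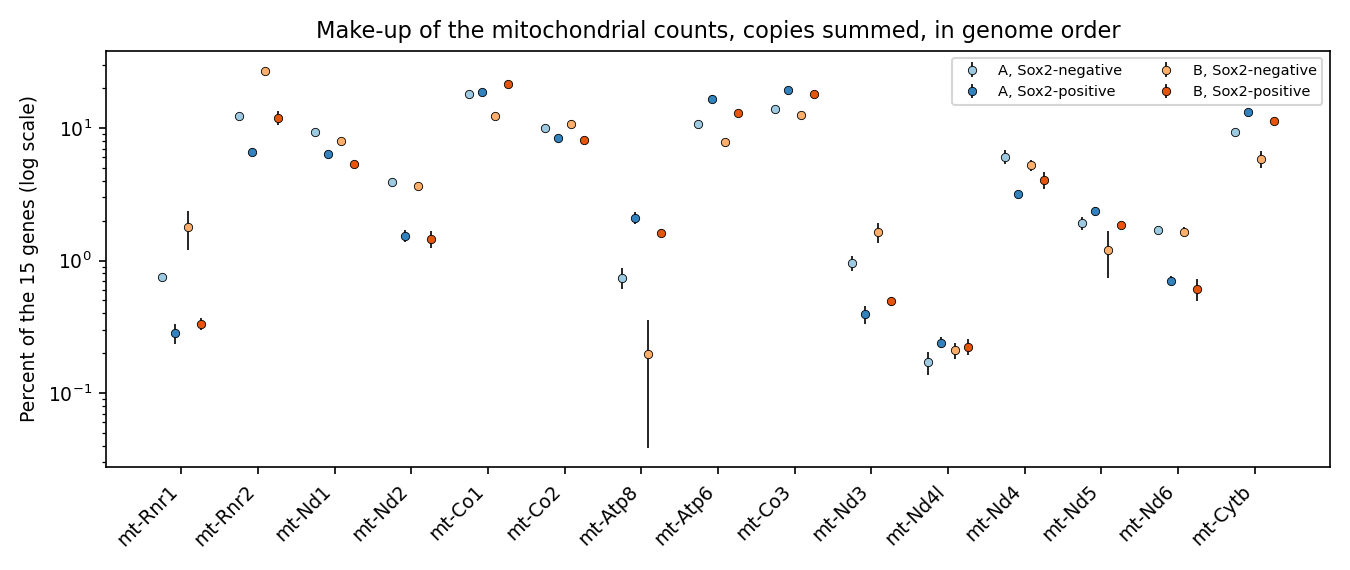
Percent of the summed count of the 15 genes (y axis, log scale) for each gene in genome order (x axis), near-whole copies added to their genes, as mean ± SD in each of the 4 groups. With copies added, mt-Co1 takes 18.1% and 18.7% in batch A, against 12.4% and 21.4% in batch B, while mt-Rnr2 takes 26.8% in batch B Sox2-negative cells and at most 12.4% on average elsewhere.

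The batches were then compared directly. The difference between the population differences, batch B minus batch A, was called positive by edgeR for 12 members, against 2.82% of all genes tested, and negative for 0, against 4.22%. Negative calls numbered 0 at an unadjusted p under 0.05 and 0 with DESeq2. The values were 2.43 (SE 0.29) for mt-Co1, 2.34 (SE 0.48) for mt-Atp8, 1.46 (SE 0.19) for mt-Nd4 and 1.32 (SE 0.16) for mt-Cytb. With copies added mt-Co1 was at 1.64 (SE 0.13, edgeR adjusted p = 1.52e-09), below mt-Atp8 at 2.33. Those of mt-Nd5, mt-Atp6, mt-Co3, mt-Nd2, mt-Co2, mt-Nd1, mt-Nd6 and mt-Rnr2 lay between 0.65 and 1.16, and mt-Rnr1, mt-Nd3 and mt-Nd4l did not pass the threshold. Without libraries 1 and 2 of batch B, mt-Nd2, mt-Nd5 and mt-Nd6 no longer passed, at 0.55, 0.53 and 0.37 (edgeR adjusted p = 0.0684, 0.0856 and 0.284), while the other 9 did, with mt-Co1 at 1.81, mt-Atp8 at 1.47 and mt-Nd4 at 0.98. Without Sox2-negative library 1 of that batch alone, mt-Nd6 was at 0.70 (edgeR adjusted p = 0.0561), and without library 3 mt-Atp8 was at 2.95. When counts were scaled to the 15 genes themselves, 4 members were called positive and 1 negative, beside 190 and 5331 of the 17190 genes, whose median was then -0.91 in place of 0.02.

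In Sox2-negative cells, batch B was lower than batch A for 11 protein-coding genes, against 5.35% of all genes, and higher for both ribosomal RNA genes, against 5.85%. The fall was largest for mt-Atp8, at 2.50 (SE 0.39) on the log2 scale, followed as deposited by mt-Co1 at 2.13 (SE 0.23) and mt-Cytb at 1.32 (SE 0.13). With copies added the mt-Co1 value was -1.22 (SE 0.10, edgeR adjusted p = 2.24e-09), a smaller fall than that of mt-Cytb, at -1.31. The increases were 0.50 (SE 0.16) for mt-Rnr1 and 0.43 (SE 0.08) for mt-Rnr2, and mt-Rnr1 did not pass without libraries 1 and 2 (0.25, edgeR adjusted p = 0.508). In Sox2-positive cells, batch B was higher for 5 members, against 4.85% of all genes, and lower by edgeR for 0, against 5.54%; lower calls numbered 0 at an unadjusted p under 0.05 and 0 with DESeq2. The 5 were mt-Rnr2 at 1.08 (SE 0.07), mt-Nd4 at 0.58 (SE 0.13), mt-Nd3 at 0.55 (SE 0.12), mt-Rnr1 at 0.47 (SE 0.14) and mt-Co2 at 0.33 (SE 0.11). Without libraries 1 and 2 of batch B, higher calls in Sox2-positive cells numbered 3, beside 476 of the 18629 genes then tested. The mt-Rnr1 call was lost in 7 fits without 1 library in Sox2-negative cells and in 4 in Sox2-positive cells, and the mt-Co2 call in 8; with copies added mt-Co2 was at 0.17 (edgeR adjusted p = 0.135) and mt-Co1 passed, at 0.42 (edgeR adjusted p = 8.30e-04), beside 0.30 (edgeR adjusted p = 0.379) as deposited. Without Sox2-negative library 3 of batch B the mt-Atp8 value was -3.09. Markers of other cells moved with batch too: the 4 glial markers summed to between 0.0796% and 0.101% of a batch A Sox2-positive library and to between 0.00359% and 0.00701% of a batch B one, and the 3 ameloblast markers to means of 0.0340% and 0.000820%. The 5 mesenchymal markers averaged 0.168% of a batch A Sox2-positive library and 0.0764% of a batch B one. In Sox2-negative libraries the 4 endothelial markers averaged 0.0569% for batch A against 0.0144% for batch B, and the 4 leukocyte markers 0.0266% against 0.00942%, beside the erythroid markers given above. Their part in these differences was not tested. Batch is also the day and the mice, which cannot be told apart.

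Nuclear genes that copy, transcribe and process mitochondrial DNA and RNA were described from lists of such genes. Of all genes tested, 21.8% were called higher and 27.6% lower in batch A, with 17.5% higher and 25.0% lower in batch B. In the transcription list 1 of 16 tested genes was called higher and 1 lower in batch A, with 2 higher and 1 lower in batch B. In the RNA processing list 9 of 31 were called higher in batch A and the other 22 were not called, while 6 were higher and 1 lower in batch B. That list named 33 genes, of which Prorp and Fastkd4 were not found under those symbols and so were not examined. In the DNA replication list 4 of 13 were higher and 3 lower in batch A, with 2 higher and 2 lower in batch B, and in the translation list 4 and 1 of 13 in batch A, with 1 higher and 12 not called in batch B. In the list for turnover of mitochondria 5 of 8 were higher and 3 lower in batch A, with 5 and 2 in batch B. The list medians lay between 0.03 and 0.88 on the log2 scale, beside -0.13 and -0.11 over all genes.

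Among genes of the transcription, RNA processing, DNA replication and translation lists called in 1 direction in both batches, Mgme1, a nuclease of mitochondrial DNA replication, was highest, with log2 fold changes of 1.83 and 2.14 in batches A and B. Trmt10c, a subunit of an enzyme that takes part in cutting transfer RNAs out of the precursor, followed with 1.56 and 1.61. Tfam, which packages mitochondrial DNA and starts its transcription, rose by 1.21 and 1.35, from 26.6 to 61.7 CPM and from 29.0 to 73.8 CPM. Lowest were Rrm2b, which supplies deoxynucleotides, at -1.39 and -1.04, and Polg, the mitochondrial DNA polymerase, at -0.95 and -0.85. Hsd17b10, another subunit of the transfer RNA processing enzyme, was next lowest of the genes called in both, and rose by 0.38 and 0.84. Polrmt, the mitochondrial RNA polymerase, was at -0.80 (edgeR adjusted p = 0.110) in batch A and fell by 1.56 (edgeR adjusted p = 0.00447) in batch B.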

How the data were processed

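The authors deposited estimated counts per gene for 23 libraries, made per the submitters' processing notes with FastQC, Trimmomatic, Salmon and mm10, and not scaled to depth; versions, strand setting and annotation are not given in the sources used here. Symbols, positions and sequences came from GENCODE M21 (GRCm38), which matched 54094 identifiers (99.5%). Counts were rounded and fitted with edgeR 4.0.16 in R 4.3.3 (quasi-likelihood F test, group means of the 4 groups, TMM scaling, filterByExpr, Benjamini-Hochberg, called at adjusted p under 0.05). DESeq2 1.42.0 was an alternative. CPM are TMM-scaled and use unrounded counts. Shares and percents have no test. The members, gene lists and tests were chosen with earlier results of these data known. All 15 ribosomal RNA and protein-coding genes are named, transfer RNA genes at a group mean of 10 CPM or more, and nuclear genes of at least 10 CPM called in both batches in 1 direction (3 highest, 3 lowest), plus Tfam and Polrmt. The list of copies drawn up for the alternatives held Gm15564, which shares no 31-base word with a member, and lacked Gm28438. The edgeR steps were tested on simulated data. No 2 libraries agreed within sampling noise. ATAC-seq data were not analysed here.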

Additional observations from a re-analysis of the deposited data

Results flagged for a closer look

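The mitochondrial share and the percent of each of the 15 genes were looked at in every group, 64 sets of values in all. Chance flags about 1 in 20 such sets, so the 4 found are close to the number that chance alone would give. Percents of the same library are not independent, because they share a total. All 4 flagged libraries lay far from the rest of their group in the percent of the 15 genes. These were mt-Nd1 at 9.67% in batch B Sox2-negative library 1, mt-Atp6 at 12.8% in batch A Sox2-negative library 5, mt-Co3 at 17.7% in batch A Sox2-positive library 6, and mt-Nd3 at 0.599% in batch B Sox2-positive library 4. In batch A Sox2-positive library 6 the copy of mt-Co3, Gm28437, was at its highest, 954 CPM.

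The population difference was called different between batches for 12 of the 15 genes, each with a more positive or less negative log2 fold change in batch B. For mt-Rnr2, mt-Nd2 and mt-Nd6 it was negative in both batches and smaller in size in batch B. For mt-Nd1, mt-Co2 and mt-Nd4 it was called negative in batch A, and positive but not called in batch B. Of all genes tested, 2.82% were called positive and 4.22% negative. The differences were 0.65 for mt-Rnr2, 0.87 for mt-Nd1, 0.95 for mt-Nd2, 2.43 for mt-Co1, 0.93 for mt-Co2 and 2.34 for mt-Atp8. They were 1.01 for mt-Atp6, 1.01 for mt-Co3, 1.46 for mt-Nd4, 1.16 for mt-Nd5, 0.78 for mt-Nd6 and 1.32 for mt-Cytb. With copies added mt-Co1 was at 1.64. Without libraries 1 and 2 of batch B, mt-Nd2, mt-Nd5 and mt-Nd6 no longer passed. Scaled to the 15 genes, mt-Rnr2, mt-Nd1 and mt-Nd6 turned negative.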

How the results depend on the processing

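Beside the 4 higher and 10 lower calls in batch A, 7 and 6 for batch B, 12 and 0 for the difference between batches, 2 and 11 for batch in Sox2-negative and 5 and 0 in Sox2-positive cells, RLE size factors, total-count scaling, no filter and leaving out batch B libraries 1 and 2 each gave 1 higher call in Sox2-negative cells. Total-count scaling and leaving out those libraries gave 3 higher calls in Sox2-positive cells. Over all genes, higher calls in Sox2-negative cells numbered 886 of 17190 with RLE size factors and 661 of 17190 with total-count scaling. They numbered 1012 of 37531 with no filter and 405 of 18629 without those libraries. In Sox2-positive cells they numbered 666 of 17190 with total-count scaling and 476 of 18629 without those libraries. Scaled to the 15 genes, batch B had 10 lower calls, the difference between batches 4 higher and 1 lower, Sox2-negative cells 4 higher and 6 lower, and Sox2-positive cells 2 higher and 3 lower. Over all 17190 genes that scaling moved the median to -0.89 in batch B (1138 higher and 8213 lower calls), -0.91 for the difference between batches (190 and 5331), 0.70 in Sox2-negative cells (5767 and 311) and -0.22 in Sox2-positive cells (390 and 1587). That scaling reversed mt-Nd1 (-0.64), mt-Co2 (-0.51) and mt-Nd4 (-0.43) in batch B, mt-Rnr2 (-0.26), mt-Nd1 (-0.05) and mt-Nd6 (-0.16) in the difference between batches, and mt-Co2 in Sox2-negative cells (0.10). Copies added reversed mt-Co1 in batch A (-0.10), and leaving out libraries 1 and 2 reversed mt-Nd1 (-0.05) and mt-Nd4 (-0.09) in batch B. The cause of these reversals was not tested. Leaving out 1 library gave 1 to 3 higher calls for batch in Sox2-negative cells and 3 to 6 in Sox2-positive cells. Over all genes these fits gave 733 to 1058 and 693 to 894 higher calls. Group shares became 4.04% with listed copies or 4.03% with near-whole copies in batch A Sox2-negative cells, and 3.14%, 1.42% and 3.38% for protein-coding genes alone. The ribosomal RNA percent with copies was 13.1% and 28.6% in Sox2-negative cells of batches A and B. With the replicate block, calls were 3 higher and 10 lower in batch A, beside 3673 and 3975 of all 17190 genes. In batch B they were 7 higher and 5 lower, beside 2233 and 2841. With that block mt-Cytb in batch A had an edgeR adjusted p of 0.0560. Same-number correlations of -0.021 to 0.044 did not pair the libraries, and batch comparisons cannot hold the block. At this depth between 4 and 12 of the 22 transfer RNA genes stayed under 3 counts in every library of a group.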
